A study of Mus musculus with 12 samples.

Results

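Axon guidance ligands and receptors were examined in ribosome pull-downs from cultured mouse dorsal root ganglion (DRG) neurons. The genes were taken by symbol: the semaphorins of classes 3 to 7, the plexins, both neuropilins, the ephrins and Eph receptors, the Slits and Robo receptors, the netrins and netrin-G genes, the Unc5 receptors, Dcc and Neo1. The rule used no measured value and found 64 genes among the 14177 listed in either of 2 deposited tables. Of these, 38 were listed in both tables and 26 in the table of the Cre- libraries alone. The table of the Cre+ libraries has no count under 5 in any library, so a gene that is not listed there may have been low in a single library. Efna4, Efnb3, Epha8, Ntn5, Plxnb3, Robo3, Sema3a and Sema3g, whose symbols have the same form, were not analysed here.

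RiboTag mice carry an allele of the ribosomal protein gene Rpl22 that gives a hemagglutinin (HA)-tagged protein after Cre recombination, so that an HA antibody precipitates ribosomes and their RNA from Cre-expressing cells. All mice here were Rpl22HA/HA, and they were either Runx3-Cre+ or Runx3-Cre-. Runx3 is a transcription factor of proprioceptive sensory neurons. Neurons from all ganglia of male mice aged 3 to 6 months (per the labels) were purified by density and cultured for 24 h in medium with serum, and each sample pooled cells from 5 mice of a genotype. The pull-down RNA was compared with RNA of the lysate (input) in 4 groups of 3 libraries: Cre+ input, Cre+ pull-down, Cre- input and Cre- pull-down. By their labels, the Cre- cultures carry the same allele without the recombinase, and the design takes their comparison as the background. As given below, 6 of 8 proprioceptor markers, Runx3 among them, were enriched in the pull-downs labelled Cre-. A sample is a mixed culture that also holds glial and other cells, so fewer cells of a type and less RNA per cell cannot be told apart.

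Semaphorins act on growing axons mainly through plexins, with neuropilins as co-receptors for most secreted class 3 members. Ephrins and Eph receptors signal between touching cells, often in both directions. Slits are secreted ligands of Robo receptors, and netrins act through Dcc, neogenin (Neo1) and Unc5 receptors. In sensory neurons these families are known for routing peripheral and central axons during development, and many stay expressed in the adult.

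Total counts ranged from 8886308 to 18633365 per library. The driver gene was checked against the labels. Runx3 had 22.8, 2.07 and 11.1 normalized counts per 1000000 in the pull-downs labelled Cre+, against 4.28, 2.39 and 5.55 in their inputs (log2 fold change 1.55, adjusted p = 0.309). The Cre- labelled pull-downs had 20.8, 36.0 and 51.4 for Runx3, against 4.70, 1.90 and 2.88 in the inputs (log2 fold change 3.52, adjusted p = 2.36e-04). The difference between labels, -1.93 ± 0.996 (SE), was not called (adjusted p = 0.302). Of 8 proprioceptor markers, 6 were enriched in the pull-downs labelled Cre-. In those labelled Cre+, 1 of the 6 listed (Ntrk3) was, and Pvalb and Calb2 were not listed. Ntrk3 was enriched under both labels (2.19 and 2.05, difference 0.16, adjusted p = 0.814). Genotypes are named by their labels throughout, and the sign of every difference between labels rests on them. Whether the labels were exchanged was not tested. An exchange would turn every such sign, and the comparison labelled Cre+ would then be the background. The 12 neuron markers were all listed in both tables, with summed levels of 21152 to 27745 in inputs and 22722 to 24766 in pull-downs under the Cre+ label. Under the Cre- label, whose table was scaled separately, they were 24377 to 29334 and 49308 to 56749. In these sums abundant genes weigh most. Under the Cre- label 3 of the 12 neuron markers were enriched and 7 had a positive log2 fold change, with a median of 0.33. Under the Cre+ label none was enriched and 2 were depleted, and 7 were also positive, with a median of 0.06. Of 12 satellite glia and Schwann cell markers, 8 were listed in the Cre+ and 11 in the Cre- table. They summed to 2435 to 3730 in Cre+ inputs and 1665 to 2288 in Cre+ pull-downs. Under the Cre- label the sums were 2805 to 4322 and 1277 to 1691. Pmp22 was the highest of these markers in every library. Of 8 tested under the Cre+ label 0 were called and 2 were positive. Of 10 under the Cre- label 4 were depleted and 0 enriched, and 1, S100b, was positive (0.69).

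Levels per transcript length spanned a wide range (the plot of mean FPKM by gene). FPKM is the authors' value per transcript length and sequenced fragments, and the tables give it as 1 mean per gene over input and pull-down libraries. Sema6a, a transmembrane semaphorin of class 6, had the highest mean FPKM of all members in both tables, 259 in the Cre+ and 238 in the Cre- table. Plxna4, a receptor for class 3 and class 6 semaphorins, followed in the Cre+ table with 61.9, and Sema4f, a membrane semaphorin, in the Cre- table with 50.9. A mean FPKM over 10 was found for 16 of 38 members in the Cre+ table and for 12 of 64 in the Cre- table. The first 5 in both tables were Sema6a, Plxna4, Sema6d, Sema4f and Plxnc1, in different order. Netrins 1, 3 and 4, Dcc, Slit3, Epha2, Epha3, Epha4, Epha7 and the 4 receptors Ephb1 to Ephb4 all lay under 1 in the Cre- table. The tables give no FPKM by library, and neighbors in this order were not tested against each other.

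**Figure D1:**
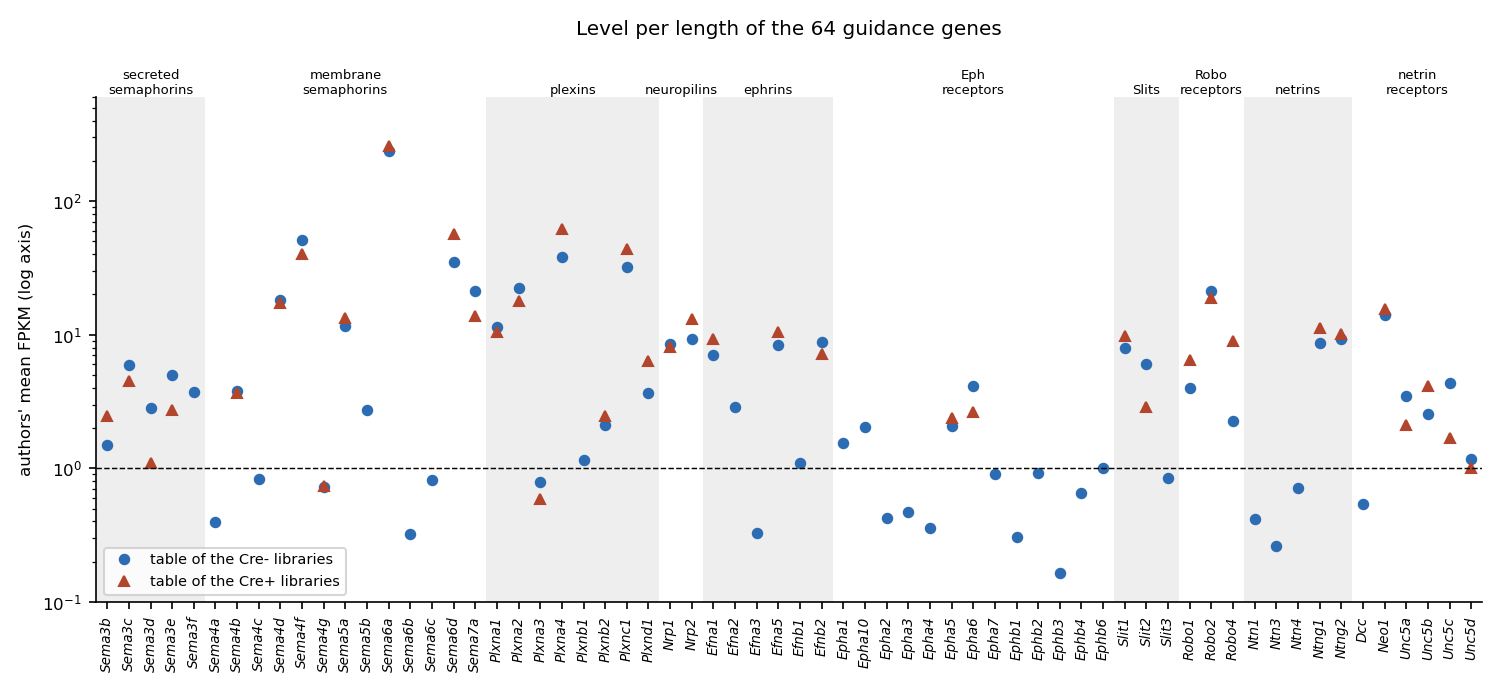
Authors' mean FPKM (log axis) of the 64 guidance genes by family, triangles for the Cre+ table and circles for the Cre- table, with the dashed line at the minimum for testing, an FPKM of 1. Sema6a stands highest at 259 and 238, and 26 genes have a circle alone because the Cre+ table does not list them.

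Each comparison asks which guidance RNAs were over- or under-represented in the pull-down relative to the lysate. A gene was called at an adjusted p under 0.1 and a 2-fold change. In the libraries labelled Cre+, 5 of the 35 members tested were enriched (Plxna1, Plxna2, Plxna4, Sema6d and Robo1) and 0 were depleted, where 4.72% of all 8947 genes tested were enriched and 2.19% depleted. The members' median log2 fold change was 0.72, against 0.08 over all genes, and 26 of 35 were positive (53.0% of all genes), or 23 with upper-quartile scaling and 19 by library size alone. At an unadjusted p under 0.05 there were 13 higher members and 0 lower ones (14.0% and 9.55% of all genes), and DESeq2 also called 0 depleted. For 12 members every pull-down lay above every input (15.5% of all genes), and for 1, Sema3b, every pull-down lay below (17.9%). In the libraries labelled Cre-, 11 of 44 members were enriched and 1 was depleted, where 6.01% of 11526 genes were enriched and 5.83% depleted. Of the 11, Epha1 passed the FPKM minimum through its pull-downs alone and was not called with no filter. The members' median was 0.16 against -0.04 over all genes, and 24 of 44 were positive (47.5% of all genes), or 18 by library size alone. For 13 members every pull-down lay above every input (18.2%), and for 5 every pull-down lay below (18.6%). At an unadjusted p under 0.05, 15 members were higher and 7 lower (16.1% and 15.0% of all genes). Plxna1, Plxna2 and Robo1 were enriched under both labels, 3 of 35 members tested in both where 1.26% of all such genes were.

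The Cre+ calls depended on single libraries. Without any single Cre+ input, no member was called, and the calls over all genes also fell from 422 enriched to between 4 and 59. Without Cre+ pull-down 1, 11 members were enriched, all 5 among them (8.98% of all genes). Without pull-down 2, 5 were (7.31% of all genes), namely Sema6d, Plxna1, Robo1, Efna5 and Slit2, so that Plxna2 and Plxna4 were lost. Without pull-down 3, Plxna1 alone was (3.58% of all genes). Scaling mattered as well: of all calls under the Cre+ label, 68.3% were enrichments with the scaling used here, 48.3% with upper-quartile scaling and 21.5% by library size alone, and the members enriched were 5, 1 (Plxna1) and 0. For the Cre- label the share of enrichments was 50.8%, 47.6% and 25.7%, with 11, 11 and 7 members. Leaving out libraries of the Cre- label gave 9 to 13 enriched members (4.99% to 7.09% of all genes) and 0 to 5 depleted (4.55% to 9.20%). The 5 came without pull-down 1 (9.20% of all genes) and the 0 without pull-down 2 (4.75%).

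**Figure D2:**
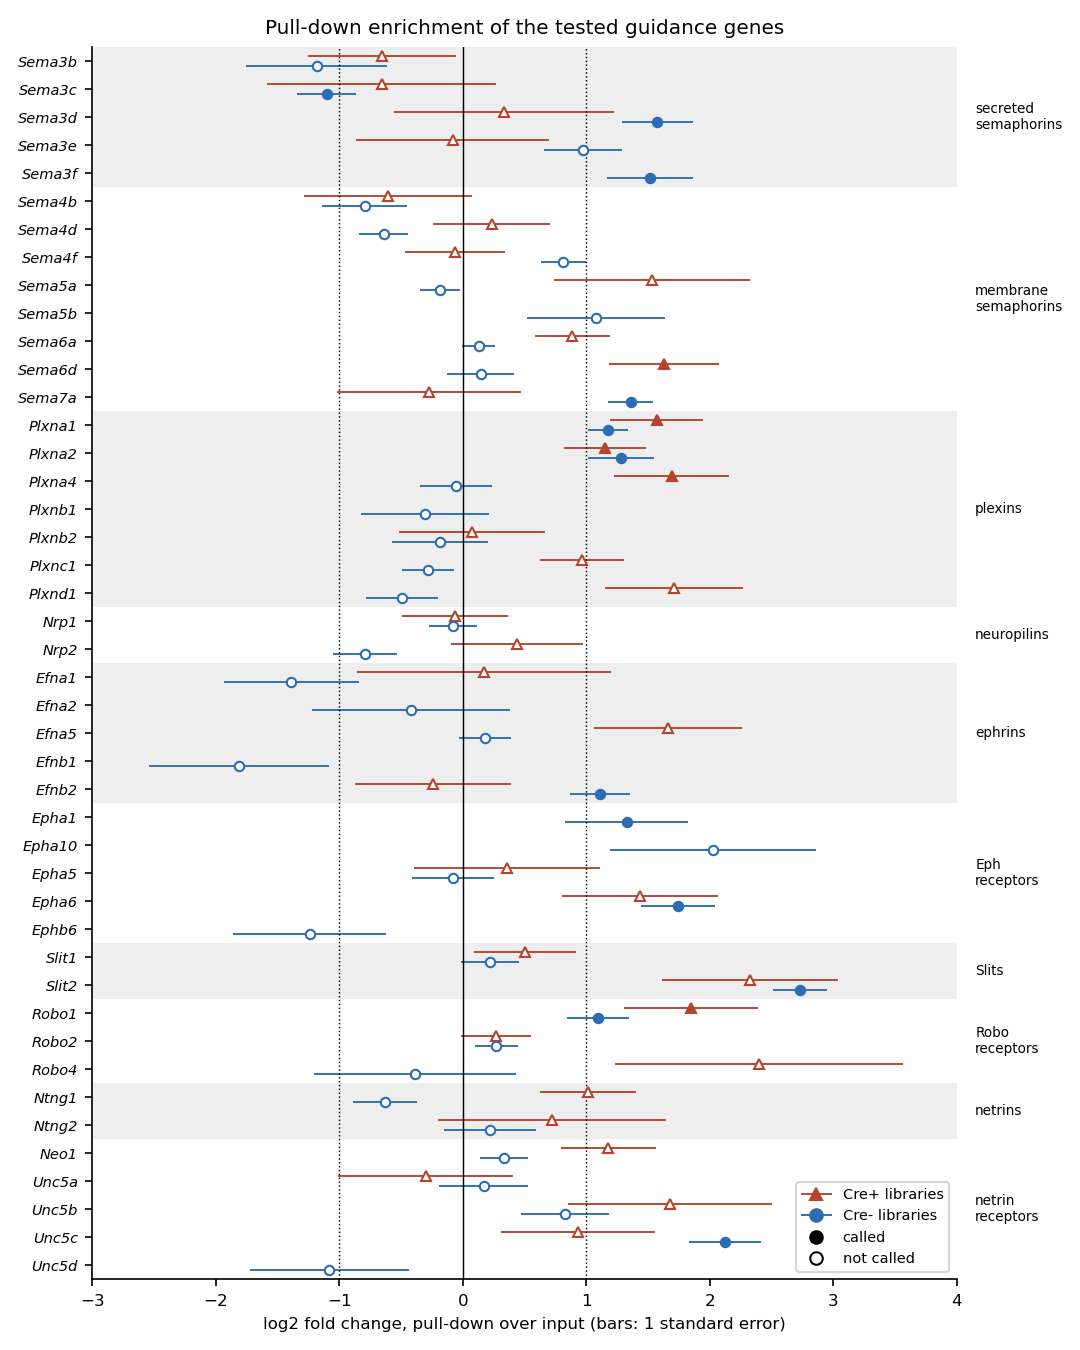
Log2 fold change of pull-down over input (x axis) with 1 standard error for each tested member, by family, triangles for the Cre+ and circles for the Cre- libraries, filled where called, with dotted lines at a 2-fold change. The Cre+ bars are longer than the Cre- bars for most genes, and 3 plexins are filled under the Cre+ label.

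Among the secreted semaphorins, ligands of neuropilin and plexin complexes, 3 of 5 tested were called in the Cre- libraries (2 enriched, 1 depleted; 6.01% and 5.83% of all genes) and 0 of 4 in the Cre+ libraries. Sema3d (chr5:12383161-12588953, RefSeq, GRCm38, the build of mm10) had 23.0, 31.2 and 22.6 normalized counts per 1000000 in the Cre- pull-downs and 10.2, 7.84 and 7.73 in the inputs. These sets did not overlap, and Sema3d was enriched with a log2 fold change of 1.58 ± 0.29 (SE, adjusted p = 0.00323). Sema3f (chr9:107681499-107710475) had 18.6, 25.7 and 22.4 against 5.00, 11.3 and 6.97, also without overlap (1.51 ± 0.35, adjusted p = 0.0108). The Cre+ table does not list Sema3f. Sema3c (chr5:17574816-17730268), the member of this group with the highest FPKM, went the other way. It fell from 44.0, 33.9 and 42.5 in the inputs to 20.1, 15.8 and 20.1 in the pull-downs, a log2 fold change of -1.10 ± 0.24 (adjusted p = 0.00835). It was not called without Cre- pull-down 2 or with all 12 libraries in 1 fit, and over all settings tried its log2 fold change was -1.34 to -0.995. Sema3e, which binds Plxnd1 directly, passed the adjusted p at 0.0542 but stayed under 2-fold (0.97 ± 0.32), with its Cre- pull-downs at 30.5, 54.9 and 79.7 and inputs at 34.2, 22.9 and 27.1.

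Under the Cre+ label no secreted semaphorin was called, and the pull-downs spread widely. Sema3d had 0.888, 10.6 and 15.7 in the Cre+ pull-downs and 7.59, 7.94 and 5.99 in the inputs. Sema3c had 2.33, 14.0 and 36.6 against 9.60, 31.3 and 42.5. Pull-down 1 was the lowest of the 3 for both genes. The log2 fold changes were 0.34 ± 0.89 for Sema3d and -0.66 ± 0.93 for Sema3c, so the error was larger than the change.

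Of the membrane-bound semaphorins, 1 of 7 tested was enriched under the Cre+ label and 1 of 8, another gene, under the Cre- label (4.72% and 6.01% of all genes). Sema6d (chr2:124089943-124667789), a class 6 ligand that binds plexins and can also act as a receptor, had 988, 339 and 403 in the Cre+ pull-downs and 117, 221 and 221 in the inputs. All pull-downs lay above all inputs, with pull-down 1 far above the others, and the log2 fold change was 1.63 ± 0.44 (adjusted p = 0.0855), or 1.03 without pull-down 1 (adjusted p = 0.0710). In the Cre- libraries Sema6d had 173, 250.0 and 260.3 against 119.9, 248 and 250.2, which overlap (0.14 ± 0.27, adjusted p = 0.764). The difference between labels was 1.51 ± 0.56 (adjusted p = 0.174) and was not called.

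Sema7a (chr9:57939596-57962865) is held at the membrane by a GPI anchor and binds Plxnc1 and integrins. Its Cre- pull-downs had 105, 117 and 98.9 and its Cre- inputs 36.5, 45.8 and 42.4, well apart (1.36 ± 0.18, adjusted p = 4.21e-04). Under the Cre+ label the pull-downs at 56.2, 41.5 and 5.54 overlapped the inputs at 58.2, 37.4 and 28.9 (-0.27 ± 0.75). The difference of -1.60 ± 0.79 was not called (adjusted p = 0.283).

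Sema6a had 1888, 2760.4 and 3079.7 in the Cre+ pull-downs, all above the inputs at 914, 1786 and 1477. Its log2 fold change of 0.89 ± 0.30 was not called (adjusted p = 0.126). In the Cre- libraries the values were 1529.8, 1609 and 1853 against 1489.7, 1488 and 1587, with a log2 fold change of 0.13 ± 0.13 (adjusted p = 0.559). Sema6a made up between 29.2% and 42.0% of the summed normalized counts of the 38 members listed in both tables, a share that also reflects transcript length. Sema4f (0.82) and Sema4d (-0.64), both membrane semaphorins of class 4, passed the adjusted p in the Cre- libraries in opposite directions and stayed under 2-fold. Sema5a had the widest Cre+ pull-downs of this group, 34.0, 337 and 589, against inputs of 51.6, 135 and 145, and was not called (adjusted p = 0.274). Without pull-down 1 it was called, at 2.10 (adjusted p = 0.0287), as was its difference between labels, at 2.30 (adjusted p = 0.0139).

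Plexins, the signaling receptors for semaphorins, held 3 of the 5 calls under the Cre+ label (3 of 6 tested, with 4.72% of all genes enriched). All 6 plexins tested there had a positive log2 fold change, from 0.07 for Plxnb2 (-0.14 with upper-quartile scaling and -0.38 by library size alone) to 1.71 for Plxnd1, and in 5 of 6 every pull-down exceeded every input (53.0% and 15.5% of all genes). Under the Cre- label 2 of 7 plexins, Plxna1 and Plxna2, were positive, and in both every pull-down exceeded every input (47.5% and 18.2% of all genes). Plxna1 (chr6:89316313-89362613) had 159, 182 and 107 in the Cre+ pull-downs and 35.9, 61.0 and 53.8 in the inputs (1.57 ± 0.38, adjusted p = 0.0654). In the Cre- libraries it had 158, 156 and 156 against 77.2, 67.9 and 63.0 (1.18 ± 0.16, adjusted p = 5.41e-04). The pull-downs thus stood above the inputs under both labels, and the difference of 0.43 ± 0.38 was not called (adjusted p = 0.550). An antisense gene, Gm26811, overlaps 10.7% of Plxna1 exon bases, and the sources do not say whether the counting used strand.

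Plxna2 (chr1:194619791-194816869), a close relative with class 3 and class 6 ligands, had 292, 293 and 325 in the Cre+ pull-downs and 81.7, 152 and 176 in the inputs (1.15 ± 0.33, adjusted p = 0.0952). The Cre- pull-downs had 265, 366 and 504 and the inputs 112, 148 and 207 (1.28 ± 0.27, adjusted p = 0.00862). The 2 labels gave nearly the same log2 fold change, with a difference of -0.09 ± 0.44 (adjusted p = 0.930).

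Plxna4 (chr6:32144543-32588192) differed in pattern from these. Its Cre+ pull-downs had 999, 1489 and 2309.9, all above the inputs at 203, 585 and 697 (1.69 ± 0.46, adjusted p = 0.0862). Its Cre- pull-downs had 324, 500.0 and 616, inside the range of the inputs at 314, 527 and 658 (-0.06 ± 0.29, adjusted p = 0.920). The difference between labels, 1.79 ± 0.60, missed the threshold (adjusted p = 0.140). It was called without Cre+ pull-down 1, at 2.05 (adjusted p = 0.0448).

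Plxnd1 (chr6:115954811-115995339), the receptor for Sema3e, was called in the difference between labels. The Cre+ pull-downs had 84.8, 86.2 and 38.6 and the inputs 10.5, 25.0 and 28.4, which do not overlap (1.71 ± 0.56, adjusted p = 0.117). With the Cre- label, pull-downs at 27.1, 15.0 and 14.8 overlapped inputs at 25.7, 27.9 and 26.4 (-0.49 ± 0.29, adjusted p = 0.280). The difference was 2.24 ± 0.64 (adjusted p = 0.0905), while neither comparison alone was called. Its call was lost with both other scalings and was made in 4 of 12 fits with a library left out. Plxnd1 is also known as a receptor of endothelial cells, and the level of endothelial markers is given with Robo4. Plxnc1 had log2 fold changes of the same signs (0.97 and -0.28), and its difference of 1.29 ± 0.43 was not called (adjusted p = 0.137).

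Neither neuropilin was called. Nrp2 (chr1:62703317-62818692), co-receptor for Sema3c and Sema3f among others, had 65.3, 39.6 and 29.8 in the Cre- pull-downs, below all inputs at 70.9, 82.1 and 80.5. The log2 fold change of -0.79 ± 0.26 passed the adjusted p (0.0562) but not the 2-fold limit. Its Cre+ pull-downs, at 158, 76.6 and 42.3, overlapped the inputs at 38.4, 85.5 and 79.9, with pull-down 1 above all of them (0.44 ± 0.53). Nrp1 had log2 fold changes of -0.07 ± 0.43 under the Cre+ and -0.08 ± 0.20 under the Cre- label.

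**Figure D3:**
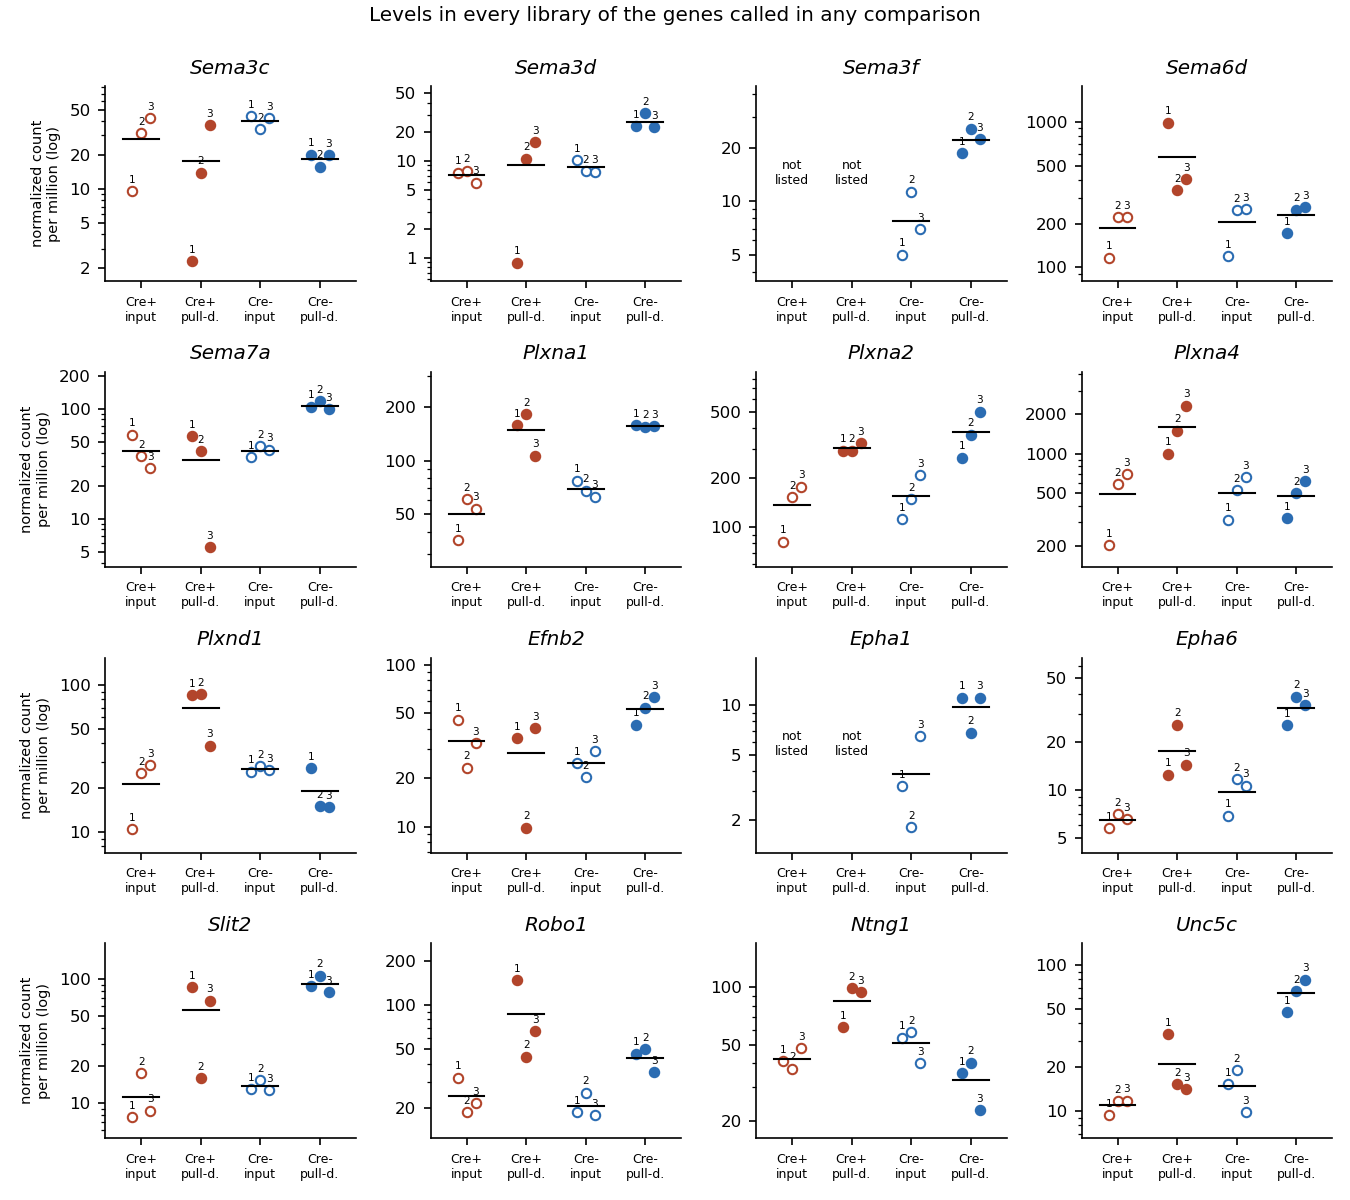
Normalized counts per 1000000 (log axes that differ between panels, scaled separately for each label) in every library for the 16 genes called in any comparison, open circles for inputs, filled for pull-downs, numbers for libraries and bars for group means. The Cre- pull-downs of each gene lie within 2-fold of each other, while the Cre+ pull-downs of Sema3c, Sema3d, Sema7a and Slit2 spread by more than 5-fold.

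Of the ephrins, ligands bound to the cell surface, 1 of 5 tested (Efnb2) was called under the Cre- label and 0 of 3 under the Cre+ label. Over all genes, 6.01% were enriched and 5.83% depleted under the Cre- label, and 4.72% and 2.19% under the Cre+ label. Efnb2 (chr8:8617235-8661242) is a transmembrane ephrin that can also signal into its own cell. It had 42.7, 54.2 and 63.1 in the Cre- pull-downs and 24.6, 20.2 and 29.2 in the inputs (1.11 ± 0.24, adjusted p = 0.00785). The sets did not overlap. It was not called without Cre- input 2 or without Cre- pull-down 3, with a log2 fold change of 0.99 in both cases. Cre+ pull-downs of Efnb2, at 35.3, 9.88 and 40.8, lay across the inputs at 45.8, 23.2 and 32.7 (-0.24 ± 0.63). Efna5 (chr17:62602957-62881317), a GPI-anchored ephrin with the highest FPKM of this family in the Cre+ table, had 166, 38.2 and 79.5 in the Cre+ pull-downs against 16.8, 43.5 and 29.4 (1.66 ± 0.60, adjusted p = 0.142), or 1.01 without pull-down 1 (adjusted p = 0.210). Its Cre- pull-downs had 43.7, 51.9 and 48.5 against 39.2, 37.4 and 50.6 (0.18 ± 0.21). The 2 lowest log2 fold changes of the family in the Cre- libraries, -1.39 for Efna1 and -1.81 for Efnb1, were not called (adjusted p = 0.107 and 0.109). With the replicate number as a block Efna1 was called (-1.64, adjusted p = 0.0918).

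Of 13 Eph receptors, 2 were tested under the Cre+ label and 5 under the Cre- label. Epha6 (chr16:59641433-60610911), a receptor for GPI-anchored ephrins, had 25.5, 38.3 and 33.9 in the Cre- pull-downs and 6.86, 11.6 and 10.6 in the inputs (1.74 ± 0.30, adjusted p = 0.00206). In the Cre+ libraries it had 12.4, 25.6 and 14.3 against 5.76, 7.03 and 6.54, again without overlap (1.43 ± 0.63, adjusted p = 0.205). The difference of -0.27 ± 0.62 was not called (adjusted p = 0.841). Epha1 (chr6:42358487-42373314) had 11.2, 6.84 and 11.2 in the Cre- pull-downs and 3.23, 1.82 and 6.52 in the inputs. Its call (1.33 ± 0.50, adjusted p = 0.0883) was lost when any of 5 of the 6 libraries was left out, all but Cre- input 3, with an adjusted p of up to 0.235 over all settings. It was also lost with a filter of 10 counts in 3 libraries (adjusted p = 0.103) and with no filter (adjusted p = 0.106). Its mean FPKM of 1.54 corresponds to 0.874 in the inputs and 2.20 in the pull-downs, so it passed the FPKM filter through the pull-downs alone. Zyx, on the other strand, overlaps 6.01% of its exon bases. Epha5 gave 0.36 and -0.08 under the 2 labels. Epha10 (2.02, adjusted p = 0.118) and Ephb6 (-1.24) were not called in the Cre- libraries, and Epha10 was with a replicate block (2.55, adjusted p = 0.0617).

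Among members past the FPKM minimum, the Slit and Robo families held the highest log2 fold change of the calls. Slit2 (chr5:47981291-48307735), a secreted ligand of Robo receptors, had 87.1, 106 and 77.9 in the Cre- pull-downs and 12.8, 15.4 and 12.7 in the inputs. The log2 fold change was 2.73 ± 0.22 (adjusted p = 2.68e-05), and Slit2 was called with each library left out in turn and in each other setting tried. For Slit2 the Cre+ pull-downs reached 85.9, 15.9 and 66.8 against 7.68, 17.4 and 8.64, with pull-down 2 under the highest input (2.32 ± 0.71, adjusted p = 0.105). The difference of -0.38 ± 0.71 was not called (adjusted p = 0.800). Slit1 (chr19:41597824-41747275), with a higher FPKM than Slit2, had 45.0, 74.4 and 63.5 in the Cre+ pull-downs against 42.0, 41.4 and 45.5, and 56.0, 42.8 and 38.0 in the Cre- pull-downs against 39.3, 46.7 and 31.4. These overlapped, with log2 fold changes of 0.50 ± 0.41 and 0.22 ± 0.24.

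Robo1 (chr16:72027518-73047491), a Slit receptor of neurons, was enriched under both labels, under Cre+ just within the threshold. The Cre+ pull-downs had 149, 44.6 and 66.5 and the inputs 32.0, 18.6 and 21.5 (1.85 ± 0.54, adjusted p = 0.0994). Without pull-down 1 the value was 1.24 (adjusted p = 0.0954). The Cre+ call was lost with a filter of 10 counts in 3 libraries (adjusted p = 0.102), with no filter (adjusted p = 0.101) and with both other scalings, and the count of 3 genes enriched under both labels includes it. Robo1 had 46.8, 50.0 and 34.8 in the Cre- pull-downs and 18.5, 25.3 and 17.8 in the inputs (1.09 ± 0.25, adjusted p = 0.0107), and the call was lost without Cre- pull-down 2. Robo2 (chr16:73891976-75447443), the Robo gene with the highest FPKM, had 149, 170.5 and 181 against 113, 149 and 154 under the Cre+ label and 237, 181 and 161 against 154, 164 and 162 in the Cre- libraries. Its log2 fold changes were close to each other, 0.27 ± 0.29 and 0.27 ± 0.17, and neither was called.

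Robo4, a Robo gene of endothelial cells, had 158, 5.24 and 6.47 in the Cre+ pull-downs and 12.2, 8.58 and 11.3 in the inputs. A single library, pull-down 1, lay above the inputs, and the log2 fold change of 2.40 ± 1.17 was not called (adjusted p = 0.247). Without that library it was -0.83 (adjusted p = 0.381). In the Cre- pull-downs Robo4 had 16.7, 1.96 and 1.41, again with number 1 the highest, against 6.86, 9.08 and 10.5. The 5 endothelial markers listed, of a list of 6 that includes the unlisted Cldn5, summed to 455, 102 and 126 in the Cre+ pull-downs and to 60.7 to 87.2 in their inputs. In the Cre- pull-downs, scaled separately, they summed to 126, 19.7 and 21.4, against 70.3 to 96.2 in the inputs. Tek, an endothelial receptor, was enriched under the Cre+ label (3.98, adjusted p = 0.0855) and differed between labels (4.41, adjusted p = 0.0797). It was low in the Cre+ inputs, at 1.75, 1.03 and 0.987, against 46.1, 2.19 and 11.4 in the pull-downs. Tek was not among the 4 endothelial markers tested in the Cre- comparison. Pecam1 by itself had 255 in Cre+ pull-down 1 and 20.2 and 17.8 in the other two. Kdr, Tek and Egfl7 were also highest in pull-down 1. Cdh5 was not, with 61.1, 59.9 and 69.6 in the Cre+ pull-downs against 20.3, 38.3 and 39.2 in the inputs. The 2 macrophage markers listed in the Cre+ table summed to 112, 16.8 and 4.85 in those pull-downs and to 68.2, 25.8 and 31.2 in the inputs. Cre+ pull-down 1 was the highest of the 3 for 13 of the 35 members, among them Robo4, Sema6d, Robo1, Efna5, Nrp2, Neo1, Unc5b, Unc5c and Slit2. It was the lowest for 17. Pull-down 3 was likewise the highest for 13 members and the lowest for 10, and pull-down 2 for 9 and 8. All 5 Cre+ calls were made without Cre+ pull-down 1, and the part of endothelial RNA in the other values was not tested.

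**Figure D4:**
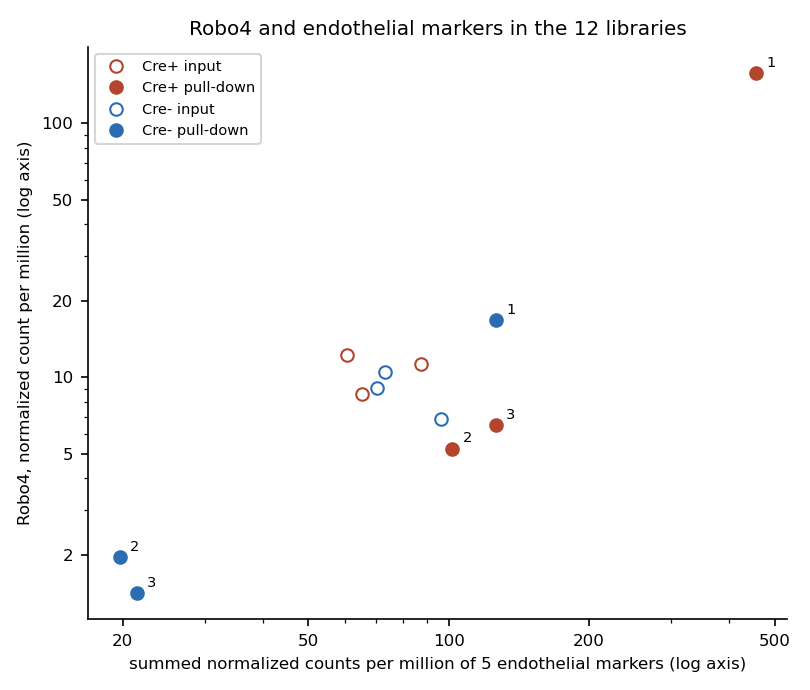
Robo4 against the summed level of 5 endothelial markers in the 12 libraries, both in normalized counts per 1000000 on log axes and scaled separately for each label, open for inputs and filled and numbered for pull-downs. Cre+ pull-down 1 stands at 158 for Robo4 and 455 for the markers, above all other libraries.

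The secreted netrins listed, Ntn1, Ntn3 and Ntn4, were all too low to test. The tested members of that family were the netrin-G genes, whose GPI-anchored products bind synaptic adhesion partners and not Dcc. Ntng1 (chr3:109780050-110149972) had 62.1, 98.9 and 94.3 in the Cre+ pull-downs, above all inputs at 40.9, 37.4 and 48.0 (1.01 ± 0.39, adjusted p = 0.161). In the Cre- libraries the pull-downs were 35.6, 40.4 and 22.6 and the inputs 54.4, 58.3 and 40.0, with 1 pull-down just above the lowest input (-0.63 ± 0.26, adjusted p = 0.118). Neither was called, but the difference was, at 1.68 ± 0.46 (adjusted p = 0.0808). That call was lost with both other scalings and was made in 3 of 12 fits with a library left out. Ntng2 gave 0.72 ± 0.92 and 0.22 ± 0.37.

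Among the netrin receptors, 1 of 5 tested (Unc5c) was called under the Cre- label and 0 of 4 under the Cre+ label. Of all genes, 6.01% were enriched and 5.83% depleted under the Cre- label, and 4.72% and 2.19% under the Cre+ label. Unc5c (chr3:141465564-141834924), a receptor linked to repulsion by netrin, had 47.6, 66.3 and 79.3 in the Cre- pull-downs and 15.4, 19.1 and 9.85 in the inputs (2.12 ± 0.29, adjusted p = 4.76e-04). It was called in every setting tried and with each library left out. With the Cre+ label its pull-downs, at 33.6, 15.2 and 14.1, all lay above the inputs at 9.43, 11.7 and 11.8 (0.93 ± 0.63, adjusted p = 0.387). Neo1 (chr9:58874679-59036614), which binds netrins and repulsive guidance molecules and had the highest FPKM of this family, had 229, 141 and 128 in the Cre+ pull-downs against 47.1, 92.9 and 80.1. These did not overlap, and the change of 1.18 ± 0.39 was not called (adjusted p = 0.118). The Cre- pull-downs had 136, 99.7 and 94.5 against 75.2, 98.6 and 87.6 (0.33 ± 0.19). Unc5b had 85.4, 15.2 and 10.4 in the Cre+ pull-downs against 10.2, 11.9 and 12.5, with pull-down 1 far above the other two, and its log2 fold change of 1.68 was not called (adjusted p = 0.250), or 0.19 without pull-down 1.

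Members under the FPKM minimum were not part of these tests. The minimum applies to the mean over inputs and pull-downs. Split by normalized counts, Epha1 and Epha10 (Cre-) and Sema3d and Slit2 (Cre+) were under 1 in the inputs and passed through the pull-downs, and Efnb1, Ephb6, Sema3b and Unc5d (Cre-) were under 1 in the pull-downs and passed through the inputs. Plxna3, Sema4g and Unc5d were listed but not tested under the Cre+ label. Under the Cre- label 20 were: Dcc, Efna3, Epha2, Epha3, Epha4, Epha7, Ephb1, Ephb2, Ephb3, Ephb4, Ntn1, Ntn3, Ntn4, Plxna3, Sema4a, Sema4c, Sema4g, Sema6b, Sema6c and Slit3. Dcc and Slit3 stood out among these after their values were seen. Dcc, the attractive netrin receptor, had raw counts of 0, 6 and 1 in the Cre- inputs and 71, 180 and 101 in the pull-downs. Slit3 had 13, 17 and 12 against 251, 137 and 143. With no filter both were enriched, Dcc with a log2 fold change of 5.27 (adjusted p = 0.00255) and Slit3 with 3.23 (adjusted p = 6.74e-04), where 5.21% of 14177 genes were enriched.

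The 35 members tested under both labels were compared directly (the scatter of enrichment under the 2 labels). Both log2 fold changes were positive for 15 members and negative for 4 (Nrp1, Sema3b, Sema3c and Sema4b). Another 11 were positive under the Cre+ label alone, among them 4 plexins (Plxna4, Plxnb2, Plxnc1 and Plxnd1), and 5 under the Cre- label alone (Efnb2, Sema3e, Sema4f, Sema7a and Unc5a). In the test of the difference over all 12 libraries, 2 of 36 members were enriched more under the Cre+ label (Ntng1 and Plxnd1) and 0 more under the Cre- label (also 0 with DESeq2), where 2.33% and 2.03% of 8954 genes were. At an unadjusted p under 0.05 there were 7 members with a positive difference (Efna5, Ntng1, Plxna4, Plxnc1, Plxnd1, Sema6a and Sema6d; 11.1% of all genes) and 0 with a negative one (8.40%). The members' median difference was 0.52 and that of all genes 0.13, and 26 of 36 members had a positive difference (54.8% of all genes). In the same comparison the marker lists of cell types had a median difference of 2.10 for the endothelial list (5 of 5 positive), 0.91 for satellite glia and Schwann cells (7 of 8), 0.90 for other sensory neurons (7 of 7), -1.79 for proprioceptors (2 of 6) and -0.78 for the neuron list (3 of 12). Their part in the members' differences was not tested. Of all calls of a difference, 53.5% were higher under the Cre+ label, 29.3% with upper-quartile scaling and 20.7% by library size alone. Both calls were lost with these 2 scalings, and neither gene was called when a library was left out, save for Cre+ pull-downs 1, 2 and 3 and, for Plxnd1, Cre- pull-down 1. Over all settings tried the log2 difference was 1.46 to 1.88 for Ntng1 and 1.91 to 2.58 for Plxnd1. Of the 6 members enriched under the Cre- label, tested under both and not called under the Cre+ label, none was called in the difference. Sema7a and Unc5c were when Cre+ pull-down 1 was left out, where 6.70% of all genes were enriched more under the Cre- label (2.03% with all libraries).

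**Figure D5:**
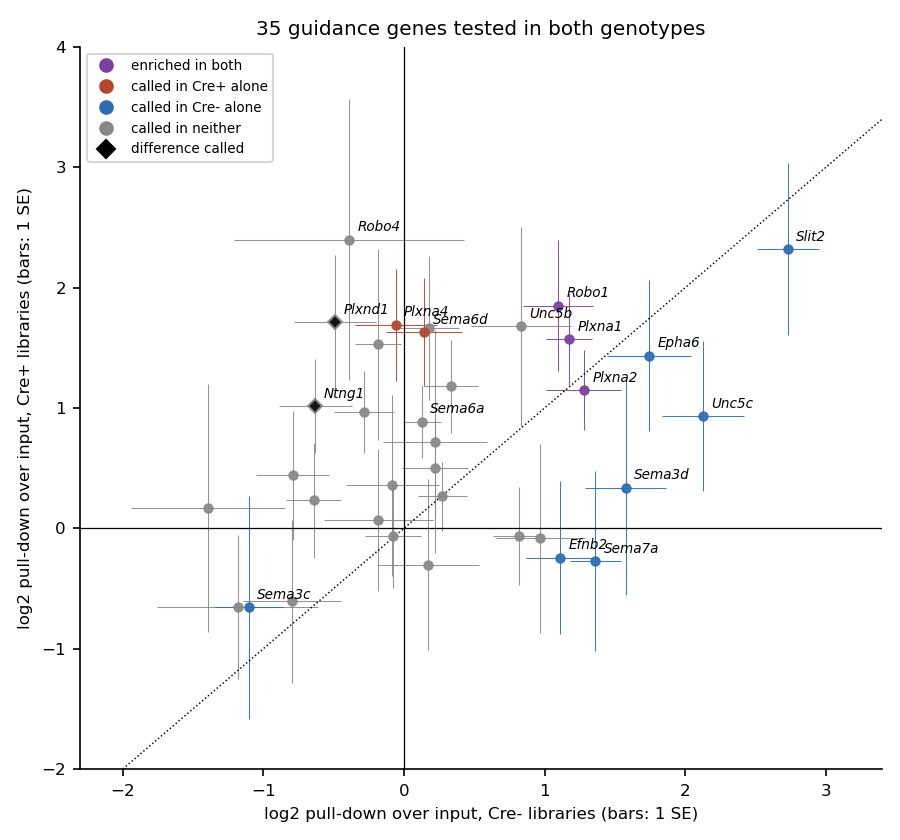
Log2 pull-down enrichment in the Cre+ libraries (y axis) against the Cre- libraries (x axis) for the 35 members tested in both, with 1 standard error on each axis and the dotted line at equal values. Plxna1, Plxna2 and Robo1 are called on both axes, and the black diamonds, Ntng1 and Plxnd1, are the genes whose difference was called.

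The Cre+ pull-downs spread more than the other groups. The highest over the lowest library was 3.16-fold in the median of the 35 members, as over all genes (2.97-fold), and exceeded 5-fold for 11 of 35. In the other groups the median was 1.72 (Cre+ input), 1.52 (Cre- input) and 1.67 (Cre- pull-down). The Cre+ pull-downs also correlated less with each other (lowest r of log2 levels across genes 0.695) than the libraries of any other group (lowest 0.916).

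Long transcripts ranked higher in the Cre+ comparison. Over all genes with a GENCODE transcript, log2 fold change and the length of the longest transcript had a Spearman correlation of 0.518 (n = 8599), and over the 35 members 0.527. In the Cre- comparison the correlation was 0.340 over all genes (n = 11040) and 0.187 over the 44 members. The members were long, with a median of 6307 bases for those tested under the Cre+ label against 3859 over all genes, and the 5 called there had a median of 9034. Genes are not independent replicates, the points share libraries, and the part of length in the enrichment was not tested.

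Other genes of these pathways were counted by list. Of 35 co-receptors and other cues, 26 were tested under the Cre+ label, with 2 enriched and 0 depleted (4.72% and 2.19% of all genes), and 27 under the Cre- label, with none called in either direction (6.01% and 5.83% of all genes). The enriched genes were Flrt1 (2.96, adjusted p = 0.0433), an adhesion protein, and Fzd3 (1.66, adjusted p = 0.0873), a Wnt receptor, and both also differed between labels (2.94 and 1.94). In the Cre- libraries the lowest adjusted p values were those of the adhesion molecules Cntn2 (0.97), Cntn1 (0.79), Chl1 (-0.75) and Dscam (0.97), all under 2-fold. The median of this list was 0.40 and -0.04 under the 2 labels, against 0.08 and -0.04 over all genes.

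Of 60 effectors downstream of the receptors, 52 and 57 were tested, with 8 enriched and 1 depleted under each label (4.72% and 2.19% of all genes for Cre+, 6.01% and 5.83% for Cre-). Under the Cre+ label the lowest adjusted p values were those of Trio (2.04, adjusted p = 0.0371), a GTPase exchange factor of the Dcc pathway, Arhgef11 (1.32, adjusted p = 0.0371), an exchange factor bound by plexin B receptors, Tubb3 (-1.19, adjusted p = 0.0448), a neuronal tubulin, and Sos1 (1.28, adjusted p = 0.0462), a Ras and Rac exchange factor. Under the Cre- label they were Enah (1.73), Trim9 (1.47), Pak1 (1.49) and Trio (1.05), which act on actin and on Dcc signaling, with adjusted p values from 1.11e-04 to 5.15e-04. Trio was thus enriched under both labels. Pak1 was enriched more under the Cre- label (difference -1.21), and Arhgef11 (1.09) and Rock1 (1.89), a kinase acting on the cytoskeleton, more under the Cre+ label. The median of this list was 0.54 and 0.09 under the Cre+ and Cre- labels, against 0.08 and -0.04 over all genes.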

How the data were processed

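RNA from HA pull-downs and from 10% of the lysate was sequenced in 12 libraries. Per the labels and the study's methods, the authors made base calls with CASAVA 1.8.2, aligned reads to mm10 with STAR and counted uniquely mapped fragments per RefSeq gene with HTSeq; whether strand was used is not given in the sources used here. The labels and the methods name different library kits and different ages. The deposited tables hold raw counts per gene and library, and the authors' mean FPKM per gene, which was used for the filter and for levels. The authors' own fold changes and p-values in these tables were not used, nor were 18 columns of per-sample values (normalized counts and ratios).

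Counts were tested with the quasi-likelihood test of edgeR 4.0.16 (R 4.3.3, TMM scaling, robust spread), for genes with a mean FPKM above 1, with Benjamini-Hochberg adjustment over all genes tested. Calls needed an adjusted p under 0.1 and a 2-fold change. Standard errors were derived from the test statistic. The difference between labels was the interaction over all 12 libraries. Normalized counts are counts per 1000000 after TMM scaling, computed within each table, so levels are compared within a label. The tests were also run on simulated data with 200 changed genes. The share recovered at the sizes of change reported here is not given. Values in every library are given for members called in any comparison and for the member with the highest FPKM of each family, and Sema3e, Sema5a, Robo4 and Unc5b were added after their values were seen, as were raw counts of Dcc and Slit3. The labels of the Cre+ pull-downs name their table, but the column names there also resemble the titles of the Cre- pull-downs. These columns were therefore matched to the Cre+ pull-down group and not to single samples, and their numbers only name libraries. The labels do not say that samples of a group were separate cultures, so p-values measure the spread between these samples. The members, gene lists and marker lists were chosen with earlier results of these data known. Alternatives were DESeq2 1.42.0, edgeR's exact test, other filters and scalings, all 12 libraries in 1 fit, no fold limit, a replicate block, each library left out in turn and, added after seeing the data, a spread estimate that was not robust. Counting error only is covered by the depths given. Coordinates come from RefSeq (GRCm38), and transcript lengths and exon overlaps from GENCODE M21.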

Additional observations from a re-analysis of the deposited data

Results flagged for a closer look

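The enrichment of 2 members differed between the Cre+ and Cre- labels by the test of the difference itself. The log2 difference, Cre+ minus Cre-, was 1.68 for Ntng1 and 2.24 for Plxnd1. Both calls were lost with upper-quartile scaling and by library size alone. Of 12 fits with a library left out, Ntng1 was called in 3 and Plxnd1 in 4. Over all settings the log2 difference was 1.46 to 1.88 for Ntng1 and 1.91 to 2.58 for Plxnd1.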

How the results depend on the processing

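In the Cre+ comparison the 5 enriched members became 12 with DESeq2, 9 with the exact test, 12 with all 12 libraries in 1 fit, 1 with upper-quartile scaling and 0 by library size alone, and 0 to 11 with a library left out, while the share of all genes enriched went from 4.72% to 12.3%, 8.79%, 14.0%, 2.78% and 2.15%, and to 0.0447% to 8.98%; the depleted count was 0 throughout. In the Cre- comparison the 11 enriched members became 7 by library size alone, 5 with all 12 libraries in 1 fit and 9 to 13 with a library left out (all genes 6.01%, then 3.72%, 3.02% and 4.99% to 7.09%). The fit of all 12 libraries also tested fewer genes, 8954 against 11526, and Sema3f and Epha1 were not among them. The 1 depleted member (Sema3c) became 3 with DESeq2, 3 with the exact test, 5 by library size alone, 0 with all 12 libraries and 0 to 5 with a library left out (all genes 5.83%, then 6.23%, 6.72%, 10.7%, 1.95% and 4.55% to 9.20%), and 3 with no fold limit. With a replicate block it became 3, with Efna1 and Unc5d (-1.50, adjusted p = 0.0819), and 12 were enriched, with Epha10 (all genes 6.87% and 6.11%). Inputs were portions of the pull-down lysates, but the labels do not say that equal numbers mark 1 lysate. Same-numbered Cre- libraries deviated together little (r = 0.0716, 0.0308 and 0.133), though more than those of unlike numbers (r from -0.117 to 0.0273). No paired fit was made for the Cre+ libraries or the difference. The Cre+ pull-down columns were matched to their group and not to single samples. In the difference the 2 members higher under the Cre+ label became 5 with DESeq2, 0 with upper-quartile scaling, 0 by library size alone and 0 to 5 with a library left out (all genes 2.33%, then 6.83%, 0.949%, 0.804% and 0.145% to 7.96%). The 0 higher under the Cre- label became 2 without Cre+ pull-down 1 and 2 without Cre+ pull-down 3 (all genes 2.03%, then 6.70% and 5.05%), and were 0 in the other settings. The cause was not tested.

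Scaling by library size alone turned the sign of Efna5 (-0.0596), Sema6a (-0.11), Sema6d (-0.10) and Slit1 (-0.00506) in the Cre- comparison, of Nrp2 (-0.0419), Robo2 (-0.17) and Sema3d (-0.0595) in the Cre+ comparison, and of Robo2 in the difference (-0.21, and -0.14 with upper-quartile scaling). It moved the median of all genes from 0.08 to -0.36 (Cre+), from -0.04 to -0.27 (Cre-) and from 0.13 to -0.11 (difference), and upper-quartile scaling to -0.12, -0.07 and -0.05; the members' medians were then 0.35, -0.09 and 0.29, and 0.62, 0.13 and 0.37. With a library left out, signs turned within these ranges: Efnb2 -0.57 to 0.19, Nrp2 -0.15 to 0.81, Robo4 -0.83 to 2.95, Sema3d -0.29 to 0.91, Sema3e -1.16 to 0.42 and Sema7a -0.78 to 0.25 (Cre+), Plxna4 -0.30 to 0.19, Robo4 -2.36 to 0.0877 and Sema6d -0.13 to 0.33 (Cre-), and Plxna2 -0.36 to 0.17, Robo2 -0.0935 to 0.19, Robo4 -0.43 to 4.78, Sema3c -0.62 to 1.01, Slit2 -0.81 to 0.0837 and Unc5b -0.63 to 1.31 (difference). None of these was a call in its comparison. Over 26 members given by library, 494 leave-one-out values kept their direction and their side of the threshold, 47 lost and 20 gained a call and 27 turned sign; of the other values 513 kept both, 26 lost and 20 gained a call and 9 turned sign.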
